A study of Mus musculus with 4 samples.

Results

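Sorted progenitors of the embryonic mouse dorsal telencephalon were compared between 2 ages in days after conception, E18.5 (1148 single-cell barcodes) and E15.5 (541 barcodes), with 1 library each. A barcode was kept if it held at least 1000 genes and at most 10% mitochondrial transcripts, counted as unique molecular identifiers (UMIs), and at E15.5 also no more than 30000 UMIs. These 1689 barcodes are part of 6341 deposited in 4 libraries, cortex or ganglionic eminence (GE) at either age, with 1 library per group. All embryos came from a cross of heterozygous Nestin-GFP with homozygous DCX-mRFP mice and carried both reporters, and the green-fluorescent cells were sorted as neural progenitors. No other genotype, treatment or agent was labelled, and how many embryos went into each library was not stated. The sort rests on the Nestin-driven GFP of the labels, so the cells are a gated subset of the tissue and the shares of cells below are shares of sorted cells. With 1 library per group no difference has a replicate check, so no test was made, and every interval below covers counting error only.

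In the dorsal telencephalon radial glia divide at the ventricle and produce glutamatergic neurons, often through intermediate progenitors that switch on Eomes, under proneural factors of the Neurog and Neurod families. The ventral GE makes GABAergic neurons through Gsx and Dlx genes. Around birth dorsal progenitors turn from neurons to astrocytes and oligodendrocyte precursors, and Olig2 and the EGF receptor mark that switch.

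The labels call these 2 libraries GE, while the names of the deposited files give cortex, and the dorsal genes followed the file names. Emx1, a transcription factor of the dorsal telencephalon, stood at 263 UMIs per 1000000 (CPM) at E15.5 and 38.0 at E18.5 in the libraries labelled GE, against 0.593 and 1.23 in those labelled cortex. Nkx2-1, the factor of the medial GE, stood at 1.03 and 1.81 CPM against 265 and 115. The libraries keep their labels below, so that "labelled GE" means the dorsal pair and "labelled cortex" the pair used as the ventral comparison. Endogenous Nes and Dcx, the genes the reporters are named for, were present at both ages of the pair labelled GE, Nes at 105 and 167 CPM and Dcx at 273 and 199 CPM. Dcx had a log2 ratio of -0.46, and of 0.21 with the deepest E18.5 barcodes left out.

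The 2 ages differed in depth. Median depth was 17189 UMIs per kept barcode at E15.5 and 10124 at E18.5, and the limit of 30000 UMIs left out 335 of 876 barcodes at E15.5, while no limit was set at E18.5. Of the barcodes left out, 88.1% held both an Xist and a Y-linked UMI, a pair that a single cell seldom holds, and so did 35.7% of the barcodes kept at E15.5 and 11.8% of those at E18.5. Barcodes of more than 1 cell and free RNA of embryos of both sexes can each give this pair, and which of them did was not tested. Without barcodes holding both, the 2-fold rule used below called 691 genes higher, 608 of them among the 661 reported, and 225 lower, with 184 among the 197 reported. A further alternative left out the same share of the deepest barcodes at E18.5 as at E15.5, 38.2%, and kept 709. It called 785 genes higher, 588 of them among the 661, and 242 lower, 153 of them among the 197. Of the 118 higher and 67 lower genes within 1.5-fold in the other pair, described below, it called 80 and 39. The 2 libraries shared 0 barcodes, and no 2 of the 4 libraries shared more than 7.

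At E18.5 the dorsal cells held fewer transcripts of neurogenic and glutamatergic genes and more of oligodendrocyte, GABAergic and astrocyte genes than at E15.5. Summed over the kept barcodes, 7904 genes reached 20 CPM at one age or both in the pair labelled GE, and are called measured below. At E18.5, 661 of these (8.36%) were higher by 2-fold or more and 197 (2.49%) lower by 2-fold or more. These shares are the background for the counts of each list below. A gene under 20 CPM at one age was measured only through the other, which favours a call toward that age. The pair labelled cortex had 340 of 7301 genes (4.66%) higher and 16 (0.219%) lower. Among the 7090 genes measured in both pairs, 118 (1.66%) were at least 2-fold higher in the pair labelled GE and within 1.5-fold in the pair labelled cortex, and 67 (0.945%) were lower by the same rule. A further 232 were at least 2-fold higher in both pairs and 1 was lower in both. Of the rest, 155 of the higher and 19 of the lower genes differed by 1.5-fold to 2-fold in the pair labelled cortex, 1 of the lower genes was at least 2-fold higher there, and 156 higher and 109 lower genes were not measured. The median log2 ratio over all measured genes was 0.04 in the pair labelled GE and 0.03 in the pair labelled cortex. Such sums cannot tell fewer cells of a type from less RNA per cell. At the edge of the 2-fold rule, Cdan1 (ratio 2.0004) was just inside and Pdpn (ratio 1.996) just outside.

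The proneural transcription factors of cortical neurogenesis were lower at E18.5. Of 17 such genes 11 were measured, 7 were at least 2-fold lower against a background of 2.49%, 1 was higher, and their median log2 ratio was -2.65. Neurog1, a bHLH factor that commits dorsal progenitors to neurons, gave 537 UMIs (69.2 CPM) at E15.5 and 7 UMIs (0.602 CPM) at E18.5. Its level was 115-fold lower (95% interval 55.5 to 288). Only haemoglobin and microglial genes, described last, had lower log2 ratios. Neurog1 lies at chr13:56250478-56252163 of GRCm38, on the minus strand. With each cell thinned to 4000 UMIs its log2 ratio was -6.06, and with the deepest E18.5 barcodes left out instead it was -5.94.

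Its paralog Neurog2 had 1389 CPM at E15.5 and 223 at E18.5, 6.23-fold lower (5.97 to 6.51). Thus 4.99 Neurog1 UMIs were counted per 100 Neurog2 UMIs at E15.5 (4.56 to 5.44) and 0.27 at E18.5 (0.108 to 0.557), intervals that do not overlap. Neurod1, which acts after the neurogenins in newborn neurons, had 89.5 and 9.89 CPM (9.05-fold lower), and its ratio to Neurog2 moved less, from 6.44 to 4.44 per 100. Neurod2 and Neurod6, of differentiating glutamatergic neurons, had 521 and 976 CPM at E15.5 and 56.1 and 95.1 at E18.5. Nhlh1, a bHLH gene of cells leaving the cycle, had 24.0 and 1.89 CPM. Insm1 and Hes6, which many neurogenic progenitors share, stayed within 2-fold, at 448 and 501 CPM at E15.5 and 275 and 321 at E18.5. In the pair labelled cortex Neurog2 had 8.39 and 5.43 CPM and was not measured.

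**Figure D1:**
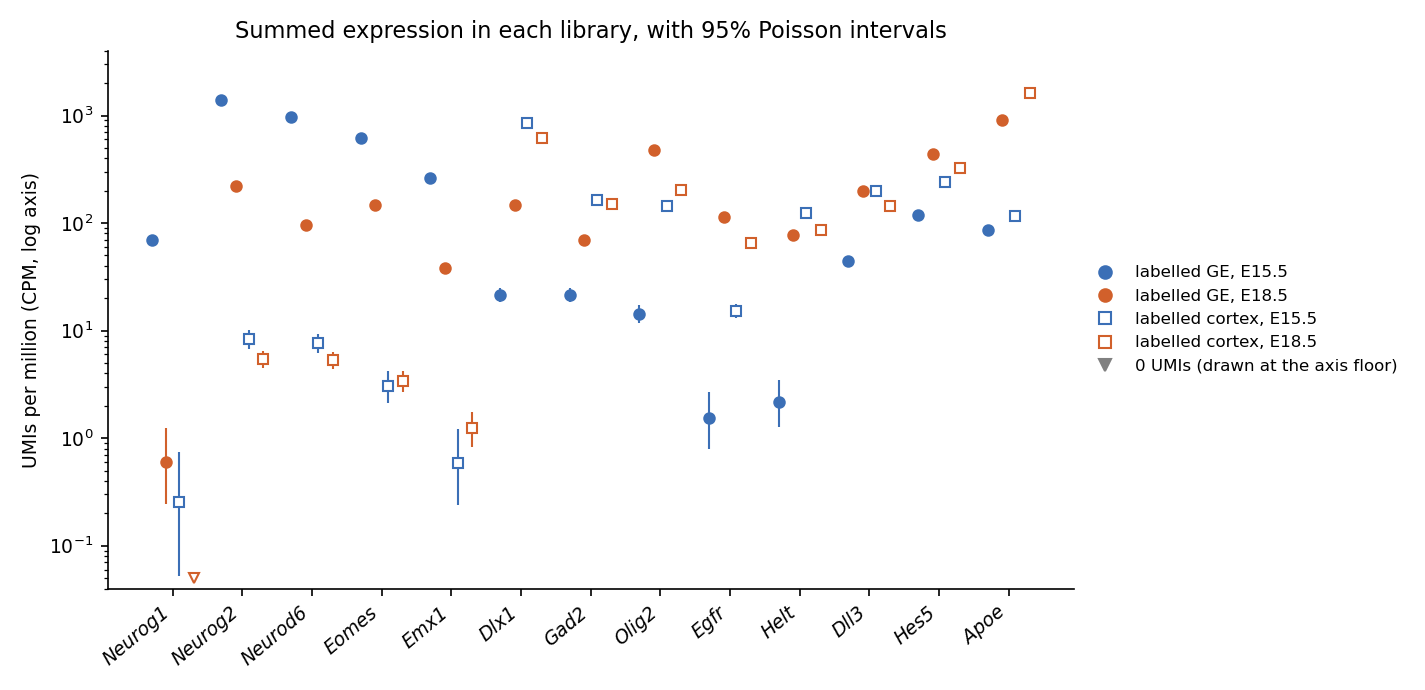
Level of 13 genes in the 4 libraries, in CPM on a log axis with 95% Poisson intervals (counting error only), filled circles for the pair labelled GE and open squares for the pair labelled cortex. Neurog1 stood at 69.2 CPM at E15.5 and 0.602 at E18.5 in the pair labelled GE, while Olig2 and Egfr were higher at E18.5.

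Intermediate progenitor genes showed the same direction, but this list shares genes with the proneural one, Neurog1 among them. All 20 were measured and 13 were at least 2-fold lower, with a median log2 ratio of -1.53 against -0.31 for the 10 measured in the pair labelled cortex. Eomes, the T-box factor that defines these cells, had 615 CPM at E15.5 and 148 at E18.5 (4.15-fold lower, 3.93 to 4.39). Sstr2, a somatostatin receptor, had 289.8 and 50.7 CPM. Eomes UMIs per 100 Neurog2 UMIs were 44.3 at E15.5 and 66.5 at E18.5, so that Eomes was lower by less than Neurog2.

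Genes of cortical glutamatergic neurons were also lower, with Neurod6, given above, again among them. Of the 10 measured in that list 8 were at least 2-fold lower and 0 higher, with a median of -2.12. Nrn1, a secreted factor of neurites, had 209 CPM at E15.5 and 25.2 at E18.5. Of 8 deep-layer genes measured 4 were lower and 1, Tle4, a corepressor, was higher (2.42-fold). Fezf2 and Tbr1, which specify deep layers, were among the lower and had 177 and 66.8 CPM at E15.5 and 29.5 and 15.9 at E18.5. Nxph4, a neurexophilin, was 16.9-fold lower (10.1 to 30.2) on 180 and 16 UMIs. Of 16 genes measured in the upper-layer list 4 were higher, Cux2, Rorb, Ptn and Kitl, 2 were lower and 10 were within 2-fold, with a median of -0.01. Of all measured genes 8.36% were higher and 2.49% lower. These sums do not show that upper-layer neurons carried the 4 genes. Kitl was also among the leading higher genes within GABAergic neuron-like cells. So were the glial genes Olig1, Olig2, Apoe and Aldh1l1, and this class is not a clean reference, as described below. Cux2 had 30.4 and 88.0 CPM, with 784 CPM at E18.5 in cluster 3 of the clustering below, named GABAergic neuron-like, and 203 in excitatory neuron-like cluster 9. Rorb had 21.9 and 103 CPM. The pan-neuronal list had 5 of 19 members lower and 2 higher, and its median of -0.64 was 0.12 with the deepest E18.5 barcodes left out.

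Dorsal patterning factors were lower to different degrees. Of 14 measured 9 were at least 2-fold lower and 0 higher, with a median of -1.37. Of these 9, 5 are also proneural, intermediate progenitor or deep-layer genes. Emx1 was 6.93-fold lower (6.25 to 7.69) and Tfap2c, of apical progenitors, 3.05-fold. Emx2 and Pax6, which are expressed in dorsal radial glia, were within 2-fold at 72.5 and 289 CPM at E15.5 and 48.8 and 194 at E18.5. Lhx2, a cortical selector, had 645 and 331 CPM, a log2 ratio of -0.96 that crossed 2-fold under 5 of 14 alternatives, TMM scaling (-1.08) among them. Those of the 14 that changed only the CPM minimum could not move this ratio.

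Among the 67 genes lower in the pair labelled GE and within 1.5-fold in the pair labelled cortex were neuronal genes that both regions express. Shisa2 had 117 CPM at E15.5 and 14.01 at E18.5 (8.38-fold lower), and 28.0 and 20.4 CPM in the pair labelled cortex. The difference of the 2 log2 ratios was -2.61 (-2.92 to -2.29, counting error only, as for all such differences). Rnd2, a small GTPase that acts below Neurog2 in neuron migration, had 260.5 and 59.1 CPM against 41.1 and 57.6. The semaphorin receptor Nrp1 had 139 and 32.3 CPM against 33.6 and 24.6, and Igfbpl1, a gene of newborn neurons, 1741 and 450.3 CPM against 305 and 336. The neuronal RNA-binding proteins Elavl2 and Elavl4 were 3.12-fold and 3.10-fold lower, and 1.18-fold and 1.29-fold lower in the pair labelled cortex. Sepp1 also met the rule, but without barcodes holding microglial, vascular or haemoglobin transcripts its log2 ratio turned from -2.01 to 2.39.

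Oligodendrocyte lineage genes were higher at E18.5 and had the highest median of the gene lists. All 15 measured of 24 were at least 2-fold higher, against a background of 8.36%, with a median log2 ratio of 4.02. Of 8 measured in the pair labelled cortex 5 were higher, with a median of 1.51. Olig2, the bHLH factor needed for oligodendrocyte precursors (chr16:91225457-91228677, plus strand), had 14.3 CPM at E15.5 and 481 at E18.5, 33.6-fold higher (27.9 to 41.0). The pair labelled cortex had 146 and 203 CPM, so that the log2 ratios differed by 4.59 (4.31 to 4.87). Its neighbour Olig1 had 35.7 and 1209 CPM, 33.9-fold higher, and 59.5 and 329.9 CPM in the other pair. The 2 genes kept their proportion, with 249.6 Olig1 UMIs per 100 Olig2 UMIs at E15.5 (199.5 to 314) and 251 at E18.5 (244 to 259).

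Genes of committed oligodendrocyte precursors were higher as well. Pdgfra, the receptor that drives their division, had 6.06 CPM at E15.5 and 140.4 at E18.5. Sox10, needed for their differentiation, had 2.45 and 48.5 CPM and was not measured in the pair labelled cortex (2.54 and 10.2). C1ql1 and Gpr17 were 40.1-fold and 39.2-fold higher on 12 and 4 UMIs at E15.5, with intervals of 22.8 to 78.0 and 15.1 to 145. Without the E15.5 limit on depth the log2 ratio of C1ql1 was 4.22 in place of 5.33.

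Most measured genes of ventral, GABAergic fate were at least 2-fold higher in the dorsal pair, and few passed 2-fold in the ventral pair. Of 32 such genes 18 were measured in the pair labelled GE, 14 were at least 2-fold higher, 0 lower and 4 within 2-fold, with a median log2 ratio of 1.97. Of the 14, 8 were within 1.5-fold in the pair labelled cortex. In the pair labelled cortex 27 were measured, 1 was higher and 2 were lower, with a median of -0.19. The 2 medians thus cover different sets of genes. Summed over the whole list, the pair labelled GE had 1570 CPM at E15.5 and 2508 at E18.5, and the pair labelled cortex 6550 and 5136. Dlx1, a homeobox factor of interneuron progenitors, had 21.4 CPM at E15.5 and 147 at E18.5, 6.88-fold higher (5.86 to 8.12). It had 860.1 and 624 CPM in the pair labelled cortex, a difference of 3.25 between the log2 ratios (3.01 to 3.48). Even at E18.5 its dorsal level was thus below both ventral levels.

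Dlx2 had 36.5 and 186 CPM, and 58.7 Dlx1 UMIs per 100 Dlx2 UMIs at E15.5 (48.1 to 71.3) became 79.3 at E18.5 (74.4 to 84.6). Gsx2, which patterns the lateral GE, was 7.18-fold higher, from 7.61 to 54.6 CPM, and its log2 ratio ranged from 1.83 after thinning to 3.86 without the depth limit. Gad2, which makes GABA, had 21.5 and 69.7 CPM. Lhx6, a marker of interneurons born in the medial GE, had 14.1 and 52.6 CPM, and Npy, a neuropeptide of some interneurons, 8.38 and 38.9. Both were higher still with the deepest E18.5 barcodes left out, at log2 ratios of 2.66 and 3.03 in place of 1.90 and 2.21. Nkx2-1, Lhx8 and Isl1, factors of ventral territory, were not measured in the pair labelled GE, at 21, 2 and 15 UMIs at E18.5.

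The 118 genes higher in the pair labelled GE and within 1.5-fold in the pair labelled cortex were led by Helt, a bHLH-Orange factor known for its role in midbrain GABAergic neurons. Helt lies at chr8:46292039-46294671 on the minus strand. It gave 17 UMIs (2.19 CPM) at E15.5 and 897 (77.1 CPM) at E18.5, 35.2-fold higher (21.9 to 60.7), against 123 and 86.5 CPM in the pair labelled cortex. Helt without the E15.5 depth limit had a log2 ratio of 6.23 in place of 5.14. Next came Olig2, then G0s2, an inhibitor of lipolysis, with 2.58 and 31.2 CPM, and Sulf2, a sulfatase that trims heparan sulfate, with 2.97 and 22.4 CPM and a log2 ratio of 4.41 after thinning in place of 2.92. Dlx1, Sp9, Nrxn3, Lrrn1, Dlx6os1, Dll3 and Pou3f4 were also among the first 12, at 6.88-fold to 4.02-fold. Of these 12 genes, 8 had a dorsal level at E18.5 below the E15.5 level of the pair labelled cortex, and Olig2, G0s2, Lrrn1 and Dll3 were above it, Dll3 by 199 to 198 CPM.

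**Figure D2:**
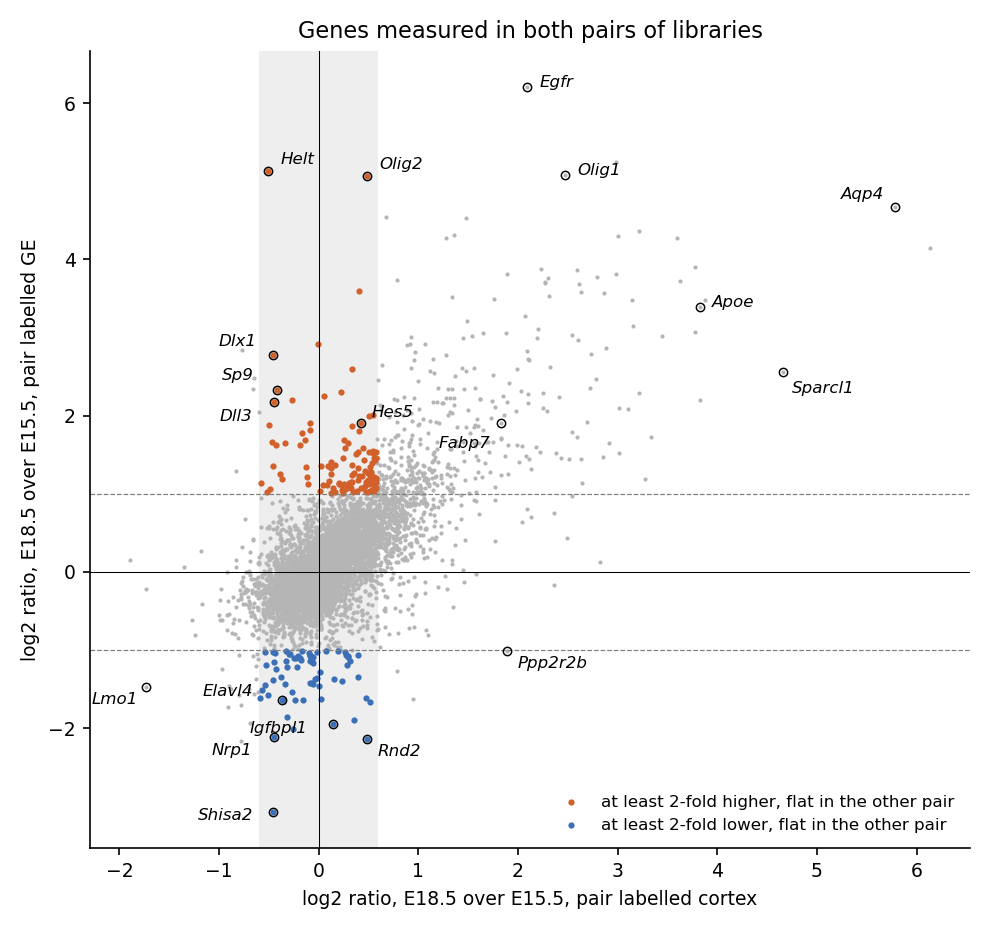
Log2 ratio of E18.5 over E15.5 in the pair labelled GE (vertical) against the pair labelled cortex (horizontal), 1 point for each of 7090 genes measured in both. Grey shading marks 1.5-fold in the pair labelled cortex and dashed lines 2-fold in the pair labelled GE, with the 118 higher and 67 lower genes of that zone in colour. Helt and Olig2 stand highest among them and Shisa2 lowest.

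Receptors and feedback genes of EGF and FGF signalling were higher. Of 18 measured 12 were at least 2-fold higher and 0 lower, with a median of 1.62 against 0.95 for 13 in the pair labelled cortex. Egfr, the EGF receptor (chr11:16752203-16918158, plus strand), gave 12 UMIs (1.55 CPM) at E15.5 and 1330 (114 CPM) at E18.5. That is 73.9-fold higher with an interval of 42.2 to 143, and the log2 ratio was 5.38 after thinning in place of 6.21. Egfr had 15.3 and 65.1 CPM in the pair labelled cortex. Spry2 and Spry4, inhibitors that ERK signalling induces, had 17.9 and 2.32 CPM at E15.5 and 127 and 25.0 at E18.5, and the ETS factor Etv4 7.61 and 46.5. The FGF receptors Fgfr1, Fgfr2 and Fgfr3 were within 2-fold, at 1.03-fold, 1.22-fold and 1.05-fold. Ccnd1, a cyclin that growth factors induce, had a ratio of 2.03 that was under 2 with TMM scaling (log2 0.90).

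Notch pathway genes moved unevenly, beside 8.36% of all measured genes higher and 2.49% lower. Of 19 measured 7 were at least 2-fold higher and 2 lower, with a median of 0.80 against 0.12 in the pair labelled cortex, where 2 of 19 were higher. Among ligands, Dll3, a Delta-like protein that dampens Notch within the cell that makes it, had 44.0 CPM at E15.5 and 199 at E18.5 against 198 and 145 in the pair labelled cortex. Its log2 ratios differed by 2.63 (2.45 to 2.81). Dll1, the activating ligand of neurogenic cells, had 61.0 and 114 CPM, a log2 ratio of 0.91 that passed 2-fold under 5 of 14 alternatives. Here too, those that changed only the CPM minimum could not move the ratio. Jag1 had 6.32 and 22.4 CPM. Among receptors, Notch1 was 1.74-fold and Notch2 2.36-fold higher, the latter below 2-fold when cells were weighted equally (log2 0.94).

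Among targets, Hes5, the repressor that keeps radial glia undifferentiated, had 118 and 443 CPM against 240.2 and 323 in the pair labelled cortex, a difference of 1.48 (1.36 to 1.60). Hes1, the other main target, had 81.0 and 87.4 CPM, and its log2 ratio of 0.11 turned to -0.01 with TMM scaling. Mfng and Numbl, a modifier and an inhibitor of Notch in neurogenic cells, were 2.83-fold and 2.91-fold lower. Of the 7 higher Notch genes 3, Dll3, Hes5 and Dner, a Notch-binding membrane protein of neurons (21.7 and 66.9 CPM), were within 1.5-fold in the ventral pair. The promoters of Hes5 and Dll3, a target and a ligand among these 3, are shown, a choice made after their values were seen. Each is the 250 bases before the gene's start, from RefSeq on GRCm38.p6, 5′ to 3′ on the gene's strand, at chr4:154960673-154960922 on the plus strand for Hes5 and chr7:28301786-28302035 on the minus strand for Dll3.
Hes5: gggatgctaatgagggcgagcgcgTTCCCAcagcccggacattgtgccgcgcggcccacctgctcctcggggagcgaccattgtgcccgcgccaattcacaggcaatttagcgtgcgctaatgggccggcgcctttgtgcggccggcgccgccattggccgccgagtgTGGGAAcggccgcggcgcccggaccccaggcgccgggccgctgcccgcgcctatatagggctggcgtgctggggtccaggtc
Dll3: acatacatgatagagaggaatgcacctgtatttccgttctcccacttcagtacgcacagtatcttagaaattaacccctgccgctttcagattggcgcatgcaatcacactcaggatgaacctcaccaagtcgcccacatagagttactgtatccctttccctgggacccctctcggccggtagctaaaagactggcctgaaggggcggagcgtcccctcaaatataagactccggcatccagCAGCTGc
Capitals mark TGGGAA or its reverse complement TTCCCA, the core of the site of the Notch effector RBPJ, and the E-box CAGCTG, which bHLH factors can bind. Hes5 holds TTCCCA 226 and TGGGAA 82 bases before its start, in opposite orientation, and Dll3 holds CAGCTG 7 bases before its start. The RBPJ core occurred in 21.6% and the CAGCTG box in 13.0% of 32851 promoters of this length, on both strands, so a match by itself is common. The other motif searched, CAGATG or CATCTG, which neurogenic bHLH factors can bind, occurred in 14.4%, and was found in the windows of Nhlh1, 203 bases before its start, and Neurod2, 118 bases before, and not in those of Hes5, Dll3, Neurog1 or Neurog2. Of the 15 genes whose windows were searched, Nhlh1 and Helt also held the RBPJ core and Dll1 and Hes6 the CAGCTG box.

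Most measured astrocyte genes were at least 2-fold higher in each pair, and part of the radial glia genes were. The radial glia list had 13 of 28 measured genes higher, 14 within 2-fold and 1 lower, with a median of 0.98. In the pair labelled cortex 8 of 25 were higher and 17 within 2-fold, with a median of 0.63. The astrocyte list had 21 of 25 higher, with a median of 2.86. Of the 25 astrocyte genes measured in the pair labelled cortex 24 were higher, with a median of 2.54. Fabp7, a fatty acid carrier, had 2712 CPM at E15.5 and 10150.4 at E18.5 (3.74-fold, and 3.55-fold in the pair labelled cortex). Tnc, a matrix glycoprotein of outer radial glia and astrocytes, had 22.0 and 264 CPM. Apoe, the lipid carrier of astrocytes, had 86.0 and 900.1 CPM, and its log2 ratio of 3.39 was 4.61 without barcodes holding microglial, vascular or haemoglobin transcripts. Vim, the intermediate filament of radial glia, had 1733 and 1704 CPM. Gja1 and Aldoc, which are higher in astrocytes than in most progenitors, had ratios of 1.68 and 1.96, against 5.15 and 5.83 in the pair labelled cortex. Their log2 ratios differed by -1.61 (-1.94 to -1.29) and -1.57 (-1.70 to -1.44).

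The nuclear factor I genes, which promote gliogenesis, were within 2-fold in the dorsal pair. Nfia had 401 and 447 CPM, Nfib 1499 and 948 and Nfix 689.8 and 422. Nfix had 209.6 and 408 CPM in the pair labelled cortex, so that the levels of the 2 regions were closer to each other at E18.5 than at E15.5. Among genes of early progenitors 2 of 15 measured were at least 2-fold lower, against 2.49% of all measured genes. They were Lmo1, by 2.77-fold, and Igf2bp2, an RNA-binding protein, by 2.36-fold, and the list's median was -0.33. Lmo1, a LIM-only cofactor, was the 1 gene lower in both pairs. S phase genes were within 2-fold throughout, 28 of 28. Of the G2 and M phase genes 29 of 30 were, but their median moved from -0.23 to -1.24 when the deepest E18.5 barcodes were left out. Just 10.9% of all measured genes passed 2-fold either way, so both counts are near the share of all genes.

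**Figure D3:**
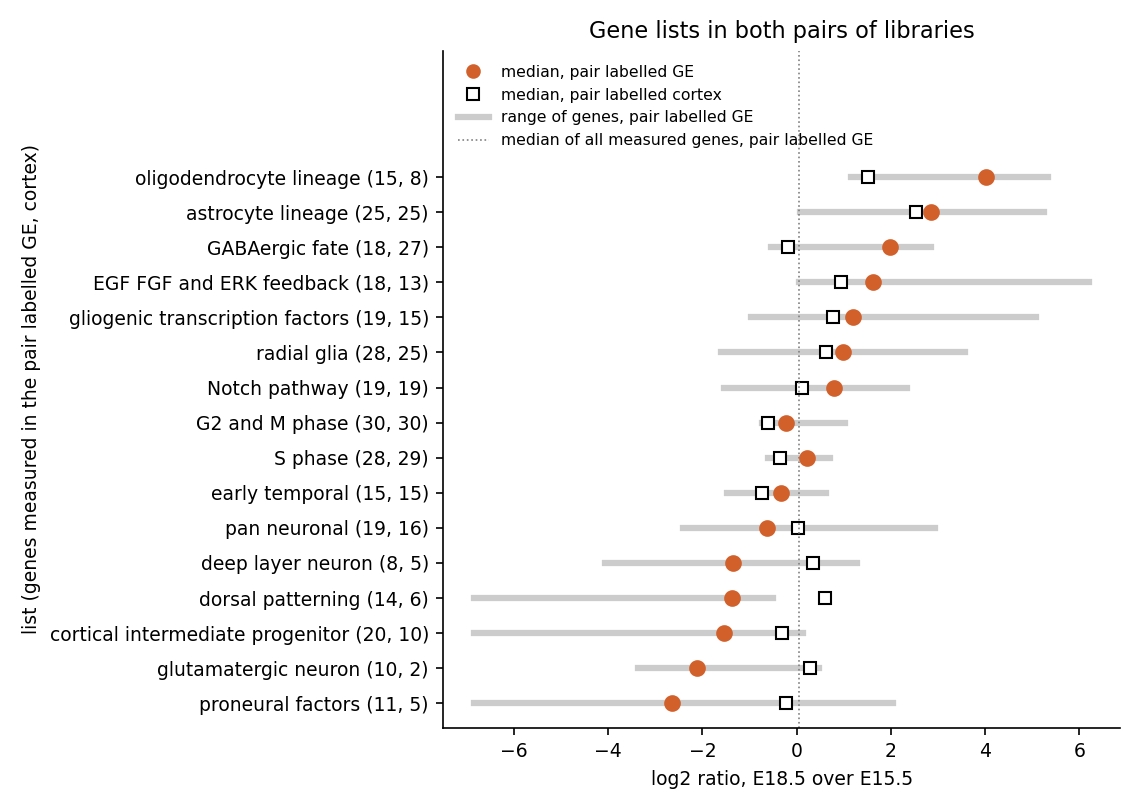
Median log2 ratio of E18.5 over E15.5 for 16 gene lists, filled circles for the pair labelled GE and open squares for the pair labelled cortex, with the number of genes measured in each pair after the list's name. Grey bars span the genes of the pair labelled GE. Proneural, glutamatergic and dorsal lists stand to the left in the pair labelled GE. The GABAergic list stands right in that pair (1.97, 18 genes) and near 0 in the other (-0.19, 27 genes), so these medians cover different sets of genes.

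Genes of astrocytes made up part of the largest differences. Dio2, a deiodinase that activates thyroid hormone, gave 2 UMIs at E15.5 and 307 at E18.5, a ratio of 102 with an interval of 28.1 to 849, and its log2 ratio of 6.68 was 5.37 without a depth limit. Grm3, a glutamate receptor of astrocytes, gave 0 and 267 UMIs, which makes it at least 59.3-fold higher, a log2 bound of 5.89 that was 3.86 after thinning. Hepacam, an adhesion molecule of astrocytes, had 1.03 and 39.1 CPM, against 6.35 and 50.3 in the pair labelled cortex. The water channel Aqp4 had 1.16 and 29.5 CPM, a log2 ratio of 4.67 that was 6.14 without barcodes holding Xist and Y-linked UMIs, and the glutamate transporter Slc1a2 8.25 and 116. Both had similar levels in the pair labelled cortex at E18.5, 28.0 and 119 CPM. Nptx2, a secreted pentraxin of neurons, had 3.61 and 83.9 CPM against 17.6 and 28.2. Among the gliogenic transcription factors 12 of 19 measured were at least 2-fold higher and 0 lower, Sox9 at 2.66-fold and Sox8 at 13.4-fold among them.

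Other signalling genes differed member by member, beside 8.36% of all measured genes higher and 2.49% lower. In the Wnt list 5 of 17 measured genes were at least 2-fold higher and 3 lower, with a median of 0.30 that was -0.17 at a minimum of 50 CPM. The higher ones included Axin2 and Nkd1, which Wnt signalling induces and which restrain it, at 6.45 and 28.5 CPM at E15.5 and 42.6 and 78.3 at E18.5. The lower ones were the ligand Wnt7b (61.9 and 23.9 CPM), the receptor Fzd1 (44.0 and 13.2) and Rspo3, a secreted enhancer of Wnt signalling (21.0 and 1.38). In the BMP list 3 of 11 were higher and 0 lower. Id1 and Id3, bHLH inhibitors that BMPs induce, had 46.8 and 38.2 CPM at E15.5 and 177 and 518 at E18.5. Ptch1, a receptor and target of Hedgehog, had 8.51 and 35.9 CPM and was the 1 gene of 8 measured in its list past 2-fold, a share near the 10.9% of all measured genes past 2-fold either way.

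Guidance and migration genes went both ways, with 6 of 24 measured at least 2-fold higher and 5 lower. Of all measured genes 8.36% were higher and 2.49% lower. Cxcl12, a chemokine, had 56.0 CPM at E15.5 and 12.6 at E18.5, while its receptors Cxcr4 and Ackr3, which migrating interneurons carry, had 10.3 and 18.6 CPM at E15.5 and 24.8 and 57.2 at E18.5. The ligand was thus lower and both receptors higher. Robo2 and Epha3, receptors for axon guidance cues, had 126 and 182 CPM at E15.5 and 57.6 and 61.6 at E18.5. Kitl, the ligand of the receptor Kit, had 6.06 and 85.5 CPM, and 10.3 and 38.4 in the pair labelled cortex. The immediate early genes Fos and Egr1, which dissociation can induce, had 36.1 and 43.6 CPM at E15.5 and 86.1 and 122 at E18.5. In the pair labelled cortex their ratios were 3.74 and 3.64. Their part in other results was not tested.

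Cells that still carried Eomes were compared apart from the change in their number. After each cell was thinned to 4000 UMIs, which left out 0 cells of this pair, 335 of 541 cells at E15.5 and 146 of 1148 at E18.5 held an Eomes UMI. Within them Neurog2 was found at E15.5 in 94.0% of cells (90.9 to 96.3) and at E18.5 in 71.2% (63.2 to 78.4), with levels of 1860.1 and 1435 CPM. Neurog1 was found in 22.1% (17.8 to 26.9) and 2.05% (0.426 to 5.89), at 107 and 6.44 CPM, the latter from 3 UMIs. Neurog1 thus differed by more than Neurog2 also among Eomes-positive cells. Neurod1, Neurod2 and Neurod6 were each at least 2-fold lower in these cells. They had 123, 525 and 1013 CPM at E15.5 and 60.1, 197 and 472 at E18.5, Neurod1 from 28 UMIs at E18.5. Insm1 stood at 564 and 684 CPM and Pax6 at 271 and 324 CPM.

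The radial glia genes Sox2 and Slc1a3 and the oligodendrocyte lineage gene Olig1 were higher in the same cells. Sox2, of stem cells, had 208 CPM at E15.5 and 438 at E18.5, and Slc1a3, the glutamate transporter of radial glia and astrocytes, 178 and 439.8. Olig1 UMIs were found in 0.896% and 30.8% of these cells. At E18.5 Eomes itself was found in 11.1% of 216 GABAergic neuron-like cells and 1.49% of 134 astrocyte lineage-like cells, with median depths of 5991 and 8165 UMIs. The 216 cells include 65 of cluster 10, where 66.2% of barcodes held Xist and Y-linked UMIs together. Free RNA and barcodes of more than 1 cell can both place UMIs of 2 lineages together, and their part in these values was not tested.

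**Figure D4:**
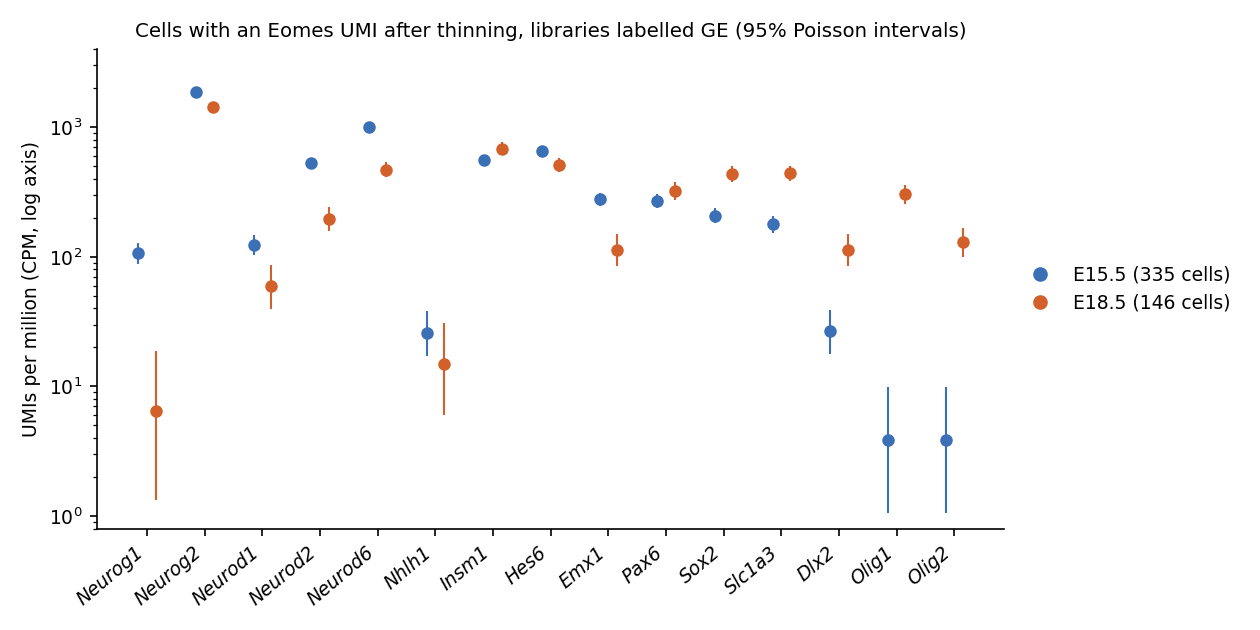
Level of 15 genes within cells holding an Eomes UMI after thinning to 4000 UMIs, libraries labelled GE, in CPM on a log axis with 95% Poisson intervals. Neurog1 is at 107 CPM in 335 cells at E15.5 and 6.44 in 146 cells at E18.5, while Neurog2 is at 1860.1 and 1435.

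Shares of cells with a UMI showed the same contrasts over all cells. After thinning, Neurog1 was found in 15.53% of E15.5 cells (12.6 to 18.9) and 0.348% of E18.5 cells (0.0950 to 0.890), or 35.1% and 0.523% unthinned. Neurog2 was found in 74.9% and 14.6%, beside 2.24% of the astrocyte lineage-like cells, and in 87.1% and 21.3% unthinned. Egfr was found in 0.924% and 26.3% (1.66% and 43.7% unthinned), beside 12.04% of GABAergic neuron-like cells. Olig2 was found in 1.85% and 47.0% (4.25% and 59.1% unthinned), beside 22.7% of GABAergic neuron-like cells. Of these 216 GABAergic neuron-like cells, 65 were in cluster 10 of the clustering below. There 66.2% of barcodes held Xist and Y-linked UMIs together, so the class is not a clean reference. Dlx2 was found in 6.47% and 25.1% (12.6% and 32.2% unthinned), beside 0% of the 134 astrocyte lineage-like cells.

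Clustering of both libraries together gave 17 clusters, named from marker genes where these allowed it. Nearly every cluster came mostly from 1 age, so a cluster may be a library rather than a cell type. Cortical intermediate progenitor-like cells (clusters 0, 1 and 12) were 67.1% of barcodes at E15.5 (63.0 to 71.0) and 6.27% at E18.5 (4.94 to 7.83). At E15.5 these clusters held 33.1%, 25.0% and 9.06% of barcodes. Cluster 0 had Neurog2 and Neurog1 among its leading genes, but also Tfap2c, of apical progenitors, and Id4. Cluster 12 had no marker of the class among its leading genes, which included the cell cycle genes Aurkb and Rrm2. The name is thus less sure for clusters 0 and 12 than for cluster 1. Excitatory neuron-like cells (cluster 9) were 12.4% and 1.92%. Oligodendrocyte lineage-like cells (clusters 2 and 7) were 1.29% (0.522 to 2.65) and 23.4% (21.0 to 26.0), and astrocyte lineage-like cells (cluster 5) 11.7% at E18.5 and 0 of 541 at E15.5, which allows a share of up to 0.555% by the limit of 3 counts and 0.680% by the Clopper-Pearson interval. GABAergic neuron-like cells (clusters 3, 10 and 13) were 6.47% and 18.8%, and GABAergic progenitor-like cells (cluster 6) 0.185% and 9.32%. Unnamed clusters held 4.25% and 27.6%. These shares are of sorted cells and moved with the clustering, to 39.9% for intermediate progenitor-like cells at E15.5 and to 0 for GABAergic progenitor-like cells at E18.5 at a coarser resolution. Radial glia-like cells (cluster 11) had no stable share, at 8.32% and 0.958% as reported and 0.37% and 18.6% at that coarser resolution. Cluster 11 had no radial glia marker among its leading genes, which included the mitotic genes Ccnb1 and Cdc20. Unnamed cluster 4, with 139 barcodes at E18.5 (12.1%) and 1 at E15.5, scored highest for radial glia. Markers of another class led its top genes, so it was not named. The 0.958% is therefore not a measure of all radial glia at E18.5.

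**Figure D5:**
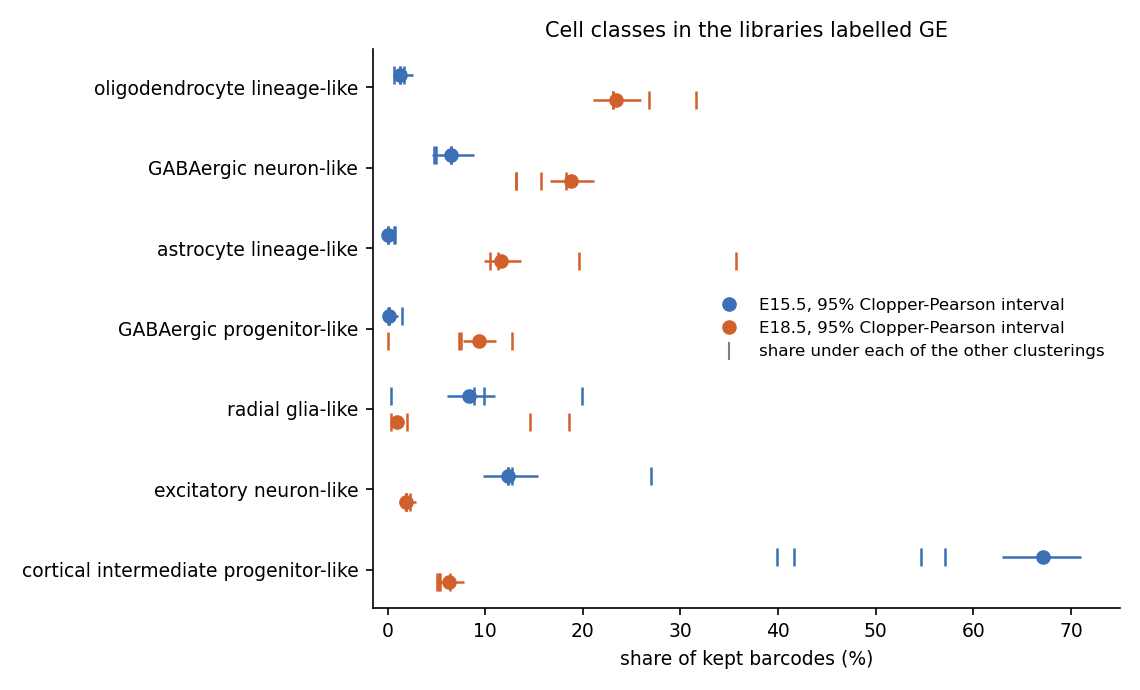
Share of kept barcodes in each named class of cells, libraries labelled GE, with 95% Clopper-Pearson intervals (counting error only) and the share under each of 4 other clusterings as ticks. Intermediate progenitor-like cells are at 67.1% at E15.5 and 6.27% at E18.5, and the oligodendrocyte lineage-like share is 23.4% at E18.5. Of the 67.1%, 33.1% is cluster 0, which also had Tfap2c, of apical progenitors, among its leading genes.

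Within the intermediate progenitor-like cells (363 at E15.5, 179 of them in cluster 0 and 135 in cluster 1, and 72 at E18.5, 56 of them in cluster 1) 491 of 7687 measured genes were at least 2-fold higher (6.39%) and 170 at least 2-fold lower (2.21%). The genes that follow took part in the clustering, so their values are descriptions. Neurog1 had the lowest ratio, at 87.2 CPM at E15.5 and 5.998 (4 UMIs) at E18.5. Neurog2 had 1811 and 1469 CPM there, Neurod1 114 and 96.0, and Neurod6 920.5 and 754, all within 2-fold. Eomes had 802 and 1128 CPM, and Emx1 325 and 157. Of these 6 genes, Neurog1 and Emx1 were at least 2-fold lower within the class. Neurod1 and Neurod6 were at least 2-fold lower among the cells with an Eomes UMI above, so their result depended on how the cells were chosen. The class also drew on different clusters at the 2 ages. Xist and Y-linked UMIs occurred together in 44.3% of cluster 0 and 37.2% of cluster 1. Excitatory neuron-like cells had 502 of 5969 measured genes higher (8.41%) and 356 lower (5.96%). GABAergic neuron-like cells, mostly of cluster 13 at E15.5 and of clusters 3 and 10 at E18.5, had 810 of 7900 higher (10.3%) and 218 lower (2.76%). Radial glia-like cells were 45 at E15.5 and 11 at E18.5, too few for more than their counts, 327 higher (7.13%) and 452 lower (9.85%) of 4588 measured genes. These cells are cluster 11 alone, led by mitotic genes, and leave out unnamed cluster 4.

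The higher genes came from different clusters at E18.5. Oligodendrocyte lineage-like cells held 18% of the library's UMIs, and 58.6% of Olig1, 63.3% of Dll3 and 72.9% of Pdgfra UMIs. Astrocyte lineage-like cells held 9.37% of all UMIs and 33.8% of those of Hes5. GABAergic neuron-like cells held 20.7% of all UMIs, 92.5% of Lhx6 and 68.3% of Gad2 UMIs. Of their 216 cells at E18.5, 146 were in cluster 3, with a median of 5423 UMIs, and 65 in the deeper cluster 10, described below. Cluster 10 thus weighs more in these shares than its number of cells. Egfr was spread, at 307 CPM in cluster 2, 202 in cluster 6 and 192 in cluster 5. Helt had 249 CPM in cluster 2, 183 in cluster 6 and 174 in unnamed cluster 14. Cluster 3, of GABAergic neuron-like cells, had 2.75 CPM of Helt, 12.4 of Egfr, 52.3 of Olig1 and 1.38 of Emx1. Cluster 10, also named GABAergic neuron-like, had 821 CPM of Olig1 and a median of 26751 UMIs, and 66.2% of its 65 barcodes held Xist and Y-linked UMIs together.

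Markers of cells outside the neural lineage rested on few barcodes. Of 12 microglial genes 7 were measured and all 7 were at least 2-fold lower, with a median of -6.77, in which genes without a UMI at E18.5 stand at the limit of 3 counts. Just 3 barcodes at E15.5 and 0 at E18.5 held 10 or more microglial UMIs, and C1qb, a complement gene of microglia, gave 233 and 1 UMIs. At E15.5, 1 barcode held 14268 of the 14410 haemoglobin UMIs of its library. All 4 endothelial genes measured of 12 were lower, but Ramp2 (-1.02) turned to 0.17 without a depth limit and to 1.75 without the vascular, blood and immune clusters, where Esam (-2.21) turned to 0.81. In all, 15 and 22 barcodes held 10 or more vascular UMIs. Markers of choroid plexus and of ependymal cells were below 20 CPM at both ages. Without all such barcodes, 18 at E15.5 and 22 at E18.5, 684 genes were higher and 179 lower.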

How the data were processed

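Single cells of 4 libraries were profiled with droplet 3′ RNA sequencing (10x, version 2 chemistry per the labels' protocols). The deposited values were whole UMI counts per gene and barcode, which the authors made with Cell Ranger 1.3.1 on mm10, with Seurat also named, per the submitters' processing notes. The sources used here do not give the annotation release or the cell calling. Of 27998 gene identifiers, 13 mitochondrial, 85 ribosomal and 10 haemoglobin genes were left out of the totals. These were 7755780 UMIs at E15.5 and 11631315 at E18.5 in the pair labelled GE, and 11805538 and 23567342 in the pair labelled cortex.

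Counts of the kept barcodes were summed per library and divided by the total, as UMIs per 1000000 (CPM). A gene was measured at 20 CPM or more in either library of a pair and called at 2-fold. Ratios have exact conditional binomial 95% intervals, levels exact Poisson and shares Clopper-Pearson intervals, and differences of log2 ratios a normal approximation. All cover counting error only. A count of 0 was set to 3 counts for ratios. For shares of cells with a UMI, each cell was thinned to 4000 UMIs at random, which left out 286 cells of the E18.5 library labelled cortex and 0 of the others. Cells were clustered with the Leiden method on 30 components of 2000 variable genes (20 neighbours, resolution 1), and a cluster was named from marker genes. A marker counted if at least 10% of a cluster's cells held it, a limit set after the data were seen. Doublets were treated by the limit on depth at E15.5, with a simulated-doublet score and the joint Xist and Y-linked UMIs as alternatives. The score left out a number set in advance from the count of cells. This was 2 barcodes at E15.5 and 11 at E18.5 in the pair labelled GE, so it could change little.

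The members and gene lists were chosen with earlier results of these data known. Named genes were the 12 with the largest change in each direction among all measured genes, among those within 1.5-fold in the other pair and among those not measured there, plus the members of 37 lists. Some of these genes are not reported here. Alternatives were other limits on depth, CPM minimum, fold, scaling, clustering and thinning. Tools were Python 3.11.15, NumPy 2.4.6, SciPy 1.17.1, pandas 2.3.3, Scanpy 1.11.5, scikit-learn 1.9.0 and, for TMM scaling, edgeR 4.0.16 in R 4.3.3. The counting and ratio steps were tested on simulated data. Gene positions are from GRCm38 with GENCODE annotation.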

Additional observations from a re-analysis of the deposited data

Results flagged for a closer look

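Of the genes measured in both pairs, Ppp2r2b, a regulatory B subunit of protein phosphatase 2A, was the 1 gene at least 2-fold lower at E18.5 in the pair labelled GE and at least 2-fold higher in the pair labelled cortex. It was named after its values were seen. It had 349.9 CPM at E15.5 and 173 at E18.5 in the pair labelled GE, a log2 ratio of -1.01, and 20.3 and 75.1 CPM in the pair labelled cortex, a log2 ratio of 1.89. With 1 library per group the difference between the pairs was not tested.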

How the results depend on the processing

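No paired analysis was possible because each group holds 1 library, and for the same reason no replicate could be left out. Over 14 alternatives and 300 named genes, log2 ratios of 6 genes past 2-fold changed sign, in 8 values given below. Of 35 medians of lists 8 changed sign, 0 of them among the 15 past 2-fold. With the deepest E18.5 barcodes left out the S phase median went from 0.21 to -0.30 and the pan-neuronal one from -0.64 to 0.12, and at a minimum of 50 CPM the Wnt median from 0.30 to -0.17 and the mural one from 0.88 to -0.03. The others were the Hedgehog, upper-layer, Cajal-Retzius and reporter lists, with reported medians of 0.00, -0.01, -0.03 and 0.10 and values farthest on the other side of 0 of -0.25, 0.42, 1.42 and -0.02. TMM scaling shifted all log2 ratios by -0.12 in the pair labelled GE and -0.14 in the pair labelled cortex, and gave 556 genes higher and 235 lower, 70.3% of calls higher.

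The counts of higher, lower, higher and within 1.5-fold in the other pair, and lower and within 1.5-fold there were 1287, 382, 279 and 123 at a minimum of 5 CPM, 334, 120, 62 and 35 at 50 CPM, 2668, 935, 730 and 368 with no minimum, 1423, 510, 497 and 287 at 1.5-fold, and 297, 94, 29 and 15 at 3-fold. With a tighter limit in the other pair the last 2 were 43 and 42, and with 2-fold the third was 273.

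Class shares moved with the clustering. At resolution 0.5, E18.5 shares were 13.2% for GABAergic neuron-like, 0% for GABAergic progenitor-like, 19.6% for astrocyte lineage-like and 18.6% for radial glia-like cells, and E15.5 shares 0%, 0.739% and 0.370% for the last 3 and 39.9% for intermediate progenitor-like cells. At resolution 2, they were at E18.5 7.32% for GABAergic progenitor-like, 26.8% for oligodendrocyte lineage-like and 2.00% for radial glia-like cells, and at E15.5 41.6% for intermediate progenitor-like and 19.96% for radial glia-like cells, of which 562 genes were higher. Thinned before clustering, they were at E18.5 15.8% for GABAergic neuron-like, 12.7% for GABAergic progenitor-like and 14.55% for radial glia-like cells, and at E15.5 1.48% for GABAergic progenitor-like and 57.1% for intermediate progenitor-like cells, and radial glia-like cells had 527 genes higher and 163 lower. Without a limit on depth, E18.5 shares were 13.2% for GABAergic neuron-like, 7.49% for GABAergic progenitor-like, 35.7% for astrocyte lineage-like, 31.6% for oligodendrocyte lineage-like and 0.348% for radial glia-like cells, and E15.5 shares 0.685% for astrocyte lineage-like, 54.7% for intermediate progenitor-like and 26.9% for excitatory neuron-like cells. Radial glia-like cells were too few for gene counts at resolution 0.5 and without the depth limit. The cause of these moves was not tested.

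Ramp2 turned to 0.17 without a depth limit and 1.75 without vascular, blood and immune clusters, Esam to 0.81 and Higd1b to -0.38 without those clusters, and Aspm to -0.23 with the deepest E18.5 barcodes left out. Without barcodes holding microglial, vascular or haemoglobin UMIs, an alternative chosen after seeing the data, Ramp2 was 2.01, Apod 0.15 and Sepp1 2.39.

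Of 192 measured named genes past 2-fold, 66 moved by over 1.5 times under an alternative, 60 of them with the sign kept. Their log2 ratios, where not given beside the result, became with the deepest E18.5 barcodes left out 2.43 for Ackr3, 2.32 for Cux2, 2.37 for Gad2, 2.89 for Nrxn3 and -1.49 for Nrp1, after thinning 3.23 for Dlx6os1, 2.87 for G0s2, 6.09 for Hepacam, -4.95 for Nxph4 and -3.33 for Rspo3, without a depth limit 4.22 for C1ql1, 2.96 for Dlx2 and -6.87 for C1qb, without vascular, blood and immune clusters -2.84 for Cxcl12, and without barcodes holding such UMIs 4.74 for Id3 and 4.05 for Spry4.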

Other observations

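Among extracellular matrix genes, more were higher than lower at E18.5 in both pairs. In the pair labelled GE 10 of 18 measured were at least 2-fold higher and 2 lower, with a median log2 ratio of 1.51, against 11 and 1 of 15 and a median of 1.75 in the pair labelled cortex. Bcan, a brain proteoglycan, had 23.3 and 278 CPM in the pair labelled GE. The 2 lower genes were Fn1 and Col2a1, at log2 ratios of -1.36 and -1.03.

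Genes of cholesterol synthesis had 4 of 18 members at least 2-fold higher and 0 lower, with a median of 0.84. Of all measured genes 8.36% were higher and 2.49% lower. An unnamed cluster of 36 barcodes, all at E18.5, had Lgals3, Clu, S100a6 and Fxyd1 among its leading genes, and the ependymal list scored highest in it without being among its 10 leading genes. After thinning before clustering, 3.05% of E18.5 barcodes were named ependymal-like and 0 at E15.5.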
